A study of Mus musculus with 2 samples.

Results

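The genes of the mouse major histocompatibility complex (MHC) and of antigen presentation were examined in effector regulatory T cells (effector Treg cells) from mice of the genotypes Nrn1-/- and Nrn1+/-. The set held every gene whose symbol starts with H2-, together with B2m, Tap1, Tap2, Tapbp, Tapbpl, Erap1, Nlrc5, Ciita, Cd74, Psmb8, Psmb9 and Psmb10, which made 56 of 46398 gene symbols. By name, 2 were classical class I genes, 25 nonclassical class I genes, 11 class II genes, 10 processing genes, 7 pseudogenes and 1 (H2-Ke6) a gene of another function. With a filter on the mean of both libraries of at least 1 FPKM, 34 of the 56 were measured. The other 22 lay below it, and 14 of these were listed at 0 in both libraries.

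The Nrn1-/- cells and the Nrn1+/- cells each gave 1 library, both from mice of C57BL/6 background that carried Foxp3DTRgfp, an allele that places a green fluorescent reporter under Foxp3. Nrn1 codes for neuritin, a small membrane-anchored protein first known from neurons. Cells of both genotypes were sorted as CD4+, CD25+, Cd62L-low, CD44-high and Foxp3gfp+, and the labels give neither the age nor the number of mice behind a library. The Nrn1+/- library is titled wild type although its genotype label is heterozygous. Nrn1 itself had 4.62 FPKM in Nrn1-/- cells, against 66.5 FPKM in Nrn1+/- cells, which is 14.4-fold lower. The genes behind the sort were present in both: Foxp3 had 195 and 257 FPKM, Cd4 155 and 161 FPKM, Il2ra (CD25) 564 and 601 FPKM and Cd44 80.5 and 62.4 FPKM in Nrn1-/- and Nrn1+/- cells.

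Class I molecules pair a heavy chain with beta-2 microglobulin and display peptides cut by the proteasome, carried into the endoplasmic reticulum by the TAP transporter and fitted by a loading complex. Classical heavy chains vary widely between mouse strains and present to CD8 T cells, while nonclassical ones have narrower roles, many as ligands of natural killer or unconventional T cells. Class II molecules present peptides from endosomes to CD4 T cells and belong mainly to B cells, dendritic cells and macrophages. Mouse T cells make little class II, which they can also take up as protein from other cells. Interferon, NF-kB and the transactivators Nlrc5 for class I and Ciita for class II drive these genes.

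Levels are given in FPKM, which divides fragments by transcript length and sequencing depth, so that levels of different genes can be set side by side per length. Ratios are log2((Nrn1-/- + 1)/(Nrn1+/- + 1)) in FPKM, which understates differences of low genes, and a gene was counted as past 1.5-fold on that scale. Folds given in words carry no pseudocount. With 1 library per genotype there is no replicate check of any difference, no test was made and no p-value is given. The intervals below are 95% counting intervals on the FPKM ratio from fragments estimated out of the spacing of low values, and they cover counting error only. In bulk RNA, fewer cells of a type and less RNA per cell cannot be told apart.

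Of the 34 measured genes, 31 were lower in the Nrn1-/- library, where 47.7% of all 12344 genes tested were lower, and 3 were higher, where 52.3% of all were. The median log2 ratio of the 34 was -0.39, against 0.02 over all genes tested. The differences were modest. Only 4 of the 34 were at least 1.5-fold lower (H2-Q4, H2-Q5, H2-Ob and the pseudogene H2-K2), where 5.27% of all genes were, and none was at least 1.5-fold higher, where 7.5% of all genes were. None passed 2-fold in either direction, against 1.11% of all genes lower and 1.98% higher. Most members are protein-coding. Of the 10695 protein-coding genes tested, 45.7% were lower, 3.69% at least 1.5-fold lower and 0.262% at least 2-fold lower. The shares of protein-coding genes at least 1.5-fold and 2-fold higher were 7.01% and 1.21%. Class by class, the median was -0.38 for the 2 classical genes, -0.46 for the nonclassical genes, -0.41 for class II and -0.12 for the processing genes. All 4 class medians stayed below 0 under every scaling tried, including one to equal sums that also moved the median of all genes to -0.25. Each scaling lowered the Nrn1-/- values relative to the Nrn1+/- values, however, so a sign below 0 could not have turned. Because many class I genes are abundant, genes of similar level serve as a second background: of the 1084 genes whose mean was 100 FPKM or more, 28.7% were lower in the Nrn1-/- library and their median log2 ratio was 0.19. The shares lower were 44.5% between 10 and 100 FPKM, where H2-DMa and the class II alpha and beta chains lay, and 56.4% between 1 and 10 FPKM, where the 4 genes of H2-O and the H2-DM beta chains lay.

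**Figure D1:**
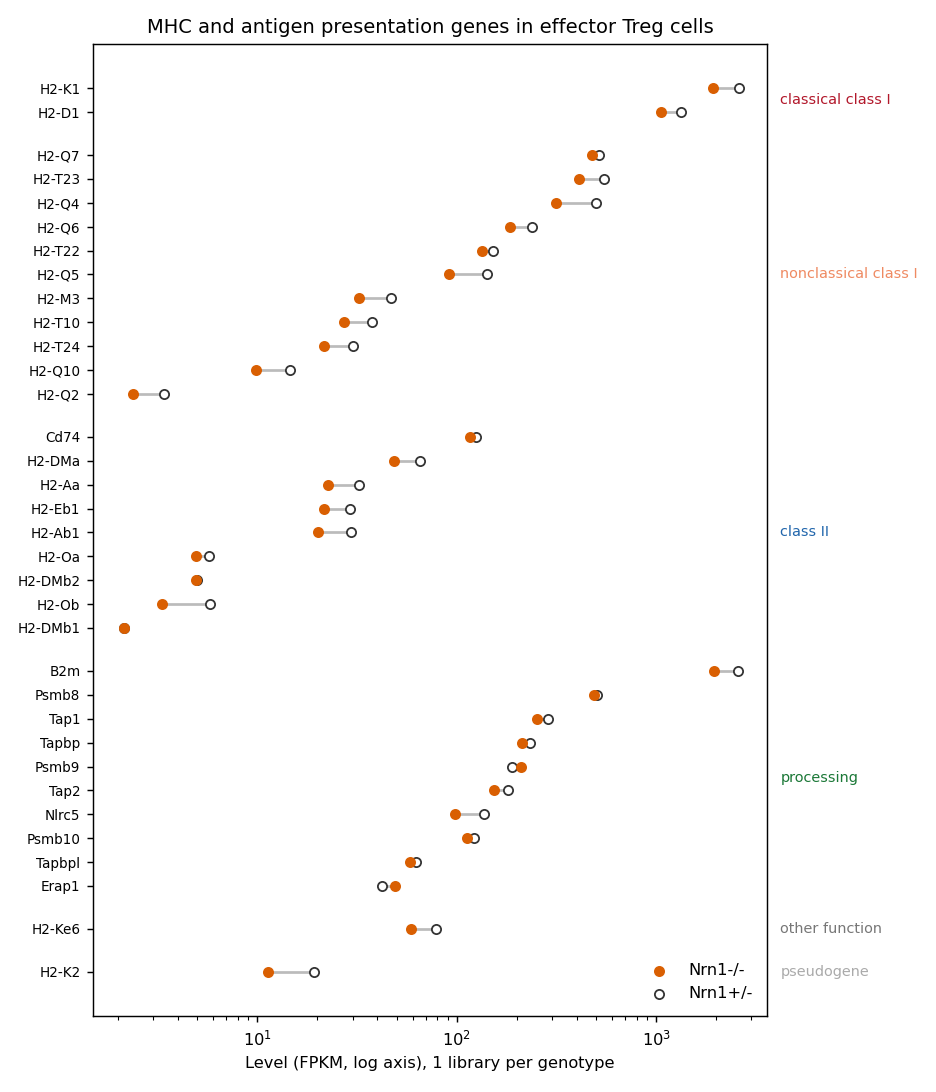
Level of each of the 34 measured genes in FPKM on a log axis, grouped by class, with the Nrn1-/- library as filled orange points and the Nrn1+/- library as open points (1 library per genotype). The filled point lies left of the open one for 31 genes, and Psmb9, Erap1 and, narrowly, H2-DMb1 have it on the right, which with libraries scaled to equal sums they no longer do.

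The classical heavy chains were among the most abundant transcripts of these cells. H2-K1, the heavy chain of H2-K (GRCm38 chromosome 17, 33996017 to 34000347, minus strand), had 1936 FPKM in Nrn1-/- cells and 2607 FPKM in Nrn1+/- cells, position 35 of all genes by mean level. That is 1.35-fold lower, and the counting interval of the FPKM ratio ran from 0.737 to 0.748. H2-D1, the heavy chain of H2-D (35262730 to 35267499, plus strand), had 1058 and 1339 FPKM in the same order of libraries and stood at position 91. It was 1.27-fold lower, with an interval from 0.783 to 0.797. Both intervals rest on at least 79237 estimated fragments in each library, and the spread between mice was not measured.

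B2m, the light chain that every one of these heavy chains needs for surface display, lies on another chromosome (chromosome 2, 122147686 to 122153083, plus strand) and followed the same ratio. It had 1946 FPKM in Nrn1-/- cells and 2586 FPKM in Nrn1+/- cells, 1.33-fold lower. H2-K1 and B2m were nearly equal in level within each library, with a within-library ratio of 0.995 in Nrn1-/- cells and 1.01 in Nrn1+/- cells. The 13 measured class I heavy chain genes include H2-Q5 and H2-T10, which are annotated as polymorphic pseudogenes. Together the 13 summed to 4697 FPKM in Nrn1-/- cells and 6170 FPKM in Nrn1+/- cells. Set against B2m in the same library, that sum was 2.41 in Nrn1-/- cells and 2.39 in Nrn1+/- cells, so that heavy and light chain transcripts stood in about the same proportion in both. Nlrc5, the transactivator of class I genes (chromosome 8), had 98.1 FPKM in Nrn1-/- cells and 137 FPKM in Nrn1+/- cells, 1.39-fold lower with an interval from 0.705 to 0.729. It had the most negative log2 ratio (-0.48) of the 10 processing genes, and B2m the next (-0.41).

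The promoters of the 2 classical genes, of H2-Q4, of the silent nonclassical gene H2-M10.1, of B2m and of Tap1 are shown because they set genes of differing level and ratio side by side. Each run is the 250 bases before the transcription start in the RefSeq table (GRCm38.p6), 5′ to 3′ on the gene's strand: chr17:34000334-34000583 (minus) for H2-K1, chr17:35262844-35263093 (plus) for H2-D1, chr17:35379367-35379616 (plus) for H2-Q4, chr17:36326151-36326400 (minus) for H2-M10.1, chr2:122147437-122147686 (plus) for B2m and chr17:34187306-34187555 (plus) for Tap1. H2-K1 has another RefSeq start, whose overlapping run is not shown. The H2-D1 run lies inside the GENCODE gene position given above (35262730 to 35267499), as the annotations place its start differently. Capitals mark matches, on either strand, to 4 letter patterns: GAAA, any 2 bases and GAAA for the interferon-stimulated response element (ISRE), TTCNNNGAA for the gamma-activated site (GAS), CCAAT for the Y box of the class I and II promoter module and GGG, any 5 bases and CC for an NF-kB site. Neighbouring matches can overlap.
H2-K1: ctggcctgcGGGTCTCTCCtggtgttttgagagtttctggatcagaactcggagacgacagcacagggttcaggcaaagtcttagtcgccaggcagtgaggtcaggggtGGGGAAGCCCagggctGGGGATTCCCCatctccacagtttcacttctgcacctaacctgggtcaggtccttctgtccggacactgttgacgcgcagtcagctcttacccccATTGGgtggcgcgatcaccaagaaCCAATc
H2-D1: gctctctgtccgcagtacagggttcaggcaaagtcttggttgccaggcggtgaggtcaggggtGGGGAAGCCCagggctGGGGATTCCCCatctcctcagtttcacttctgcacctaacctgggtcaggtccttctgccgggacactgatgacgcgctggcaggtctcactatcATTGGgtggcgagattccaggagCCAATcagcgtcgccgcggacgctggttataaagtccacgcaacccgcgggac
H2-Q4: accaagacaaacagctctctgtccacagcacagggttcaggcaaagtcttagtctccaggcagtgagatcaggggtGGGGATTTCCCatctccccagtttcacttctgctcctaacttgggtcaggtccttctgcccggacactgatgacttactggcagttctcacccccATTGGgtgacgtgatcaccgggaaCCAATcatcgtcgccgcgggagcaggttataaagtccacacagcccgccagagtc
H2-M10.1: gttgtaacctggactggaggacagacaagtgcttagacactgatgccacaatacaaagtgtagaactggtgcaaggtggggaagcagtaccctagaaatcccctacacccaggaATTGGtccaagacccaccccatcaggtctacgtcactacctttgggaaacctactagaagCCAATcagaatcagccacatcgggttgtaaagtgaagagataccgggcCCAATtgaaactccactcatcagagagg
B2m: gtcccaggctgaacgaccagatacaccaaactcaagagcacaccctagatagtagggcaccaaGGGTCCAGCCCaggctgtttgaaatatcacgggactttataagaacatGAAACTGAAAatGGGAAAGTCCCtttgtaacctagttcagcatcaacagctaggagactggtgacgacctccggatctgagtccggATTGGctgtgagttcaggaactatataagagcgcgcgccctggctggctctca
Tap1: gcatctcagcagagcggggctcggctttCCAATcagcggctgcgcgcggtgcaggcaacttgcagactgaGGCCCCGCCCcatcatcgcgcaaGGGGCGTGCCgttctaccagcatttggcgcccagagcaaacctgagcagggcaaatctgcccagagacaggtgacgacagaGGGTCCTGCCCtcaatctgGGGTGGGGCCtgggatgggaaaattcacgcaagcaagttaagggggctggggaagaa

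In these sequences H2-K1, H2-D1 and H2-Q4 share an NF-kB match that starts GGGGATT, followed further on by a Y box match on each strand. B2m carries an ISRE match and an NF-kB match close together, and Tap1 carries a Y box match and several NF-kB matches. H2-M10.1, listed at 0 FPKM in both libraries, has 3 Y box matches and no NF-kB match in the window. Over the members, 38 of 56 matched a RefSeq promoter window of 300 bases (250 before and 50 after the start). Among genes with a window, the Y box pattern was found in 2 of 2 classical and 7 of 8 measured nonclassical genes. It was in 7 of 7 measured class II and 4 of 7 measured processing genes. Of all 27025 genes with a window, 41.1% held it. It was also in 10 of the 12 nonclassical genes under 1 FPKM, so it did not separate expressed from silent ones. The NF-kB pattern was in 6 of 8 measured nonclassical genes and 2 of 12 under 1 FPKM, against 53.5% of all genes. Those 12 include the related H2-M10 genes, so they are not all separate observations. The NF-kB pattern was also in 2 of 2 classical, 5 of 7 measured class II and 3 of 7 measured processing genes. ISRE matches were few: H2-T22 and H2-T23 among the nonclassical genes and B2m and Erap1 among the processing genes, against 3.99% of all genes. GAS matches stood in H2-M3, H2-DMb2 and Psmb8 among measured members, against 9.55% of all genes. These are matches of letters and describe no binding. The Y box and NF-kB patterns are loose and match a large share of all genes, so a match may be no site. A site that departs from a pattern is left unmarked, and a gene without a match may still hold one.

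All 11 measured nonclassical class I genes were lower in Nrn1-/- cells, and 2 of them were at least 1.5-fold lower. Of all genes tested, 47.7% were lower and 5.27% at least 1.5-fold lower. H2-Q4, a Q-region heavy chain, had 314 FPKM in Nrn1-/- cells and 501 FPKM in Nrn1+/- cells, 1.59-fold lower with an interval from 0.617 to 0.638. H2-Q5, which the annotation in the files calls a polymorphic pseudogene, had 91.3 and 141 FPKM in the same order, 1.55-fold lower. The neighbouring Q genes differed less. H2-Q6 had 184 FPKM in Nrn1-/- cells and 237 FPKM in Nrn1+/- cells (1.29-fold lower), and H2-Q7, which encodes the Qa-2 antigen, had 477 and 516 FPKM (1.08-fold lower), the smallest log2 ratio of the class at -0.11. H2-Q10, known as a heavy chain secreted by the liver, stood at 9.87 FPKM in Nrn1-/- cells and 14.5 FPKM in Nrn1+/- cells. H2-Q2 was the lowest of the measured class at 2.37 and 3.39 FPKM.

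The T and M regions gave the same direction. H2-T23 encodes Qa-1, which shows a leader peptide of classical class I to the inhibitory receptor CD94/NKG2A and is known as a restriction element of regulatory CD8 T cells. It had 410 FPKM in Nrn1-/- cells and 545 FPKM in Nrn1+/- cells, 1.33-fold lower. H2-T22 and H2-T10, known as ligands of some gamma-delta T cell receptors, had 134 and 27.2 FPKM in Nrn1-/- cells and 151 and 37.7 FPKM in Nrn1+/- cells, 1.13-fold and 1.39-fold lower. Like H2-Q5, H2-T10 is annotated as a polymorphic pseudogene. H2-T24 had 21.5 FPKM in Nrn1-/- cells and 30.2 FPKM in Nrn1+/- cells. H2-M3, which presents peptides that begin with formylmethionine, had 32.3 FPKM in Nrn1-/- cells and 47.0 FPKM in Nrn1+/- cells, 1.46-fold lower. The nonclassical genes together made 0.569 times the classical sum in Nrn1-/- cells and 0.564 times in Nrn1+/- cells, so the balance between the 2 kinds was about equal in both libraries.

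Many class I genes are near copies of each other, and the sources used here do not say how the authors divided reads between them. Of the 50-base stretches of its annotated transcripts, H2-T22 shared 43.9% with other genes, H2-T10 40.7%, H2-Q5 40.1%, H2-Q4 39.2%, H2-Q6 35.0%, H2-Q7 34.9% and H2-T23 29.8%. H2-Q2 shared 16.1%, H2-D1 13.9%, H2-Q10 7.73%, H2-K1 6.87%, H2-T24 3.17% and H2-M3 0.576%, while B2m and Nlrc5 shared none. The single values of the genes with large shares are therefore uncertain, and sums over a family are given beside them, although some of the shared sequence also lies in genes outside the family. The 6 measured Q genes summed to 1079 FPKM in Nrn1-/- cells and 1413 FPKM in Nrn1+/- cells (1.31-fold lower). The 4 measured T genes summed to 593 FPKM in Nrn1-/- cells and 764 FPKM in Nrn1+/- cells (1.29-fold lower), close to the 1.32-fold of the sum of H2-K1 and H2-D1. On the opposite strand, annotated exons of other genes cover 19.1% of the exonic bases of H2-Q4 (Gm11131), 29.4% of those of H2-T22 and 27.1% of those of H2-T10. The labels do not say that strand was kept, so reads of such pairs cannot be told apart.

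The remaining 14 nonclassical genes lay under 1 FPKM in the mean, and 8 of them, all of the M region, were listed at 0 in both libraries. The highest of the others was H2-Bl, at 0.330 FPKM in Nrn1-/- cells and 0.820 FPKM in Nrn1+/- cells. H2-T3, the thymus leukaemia antigen known from intestinal epithelium, stood at 0.0525 and 0.140 FPKM. H2-M2 was the only gene of the class with a value in Nrn1-/- cells (0.0186 FPKM) and none in Nrn1+/- cells, and H2-M10.2 had the reverse, 0 and 0.0212 FPKM. Among the pseudogenes only H2-K2 was measured, at 11.3 FPKM in Nrn1-/- cells and 19.1 FPKM in Nrn1+/- cells (1.69-fold lower), and the 6 others were listed at 0 in both. Shared sequence was not computed for H2-K2, so a part of reads from other class I genes in its value was not tested.

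**Figure D2:**
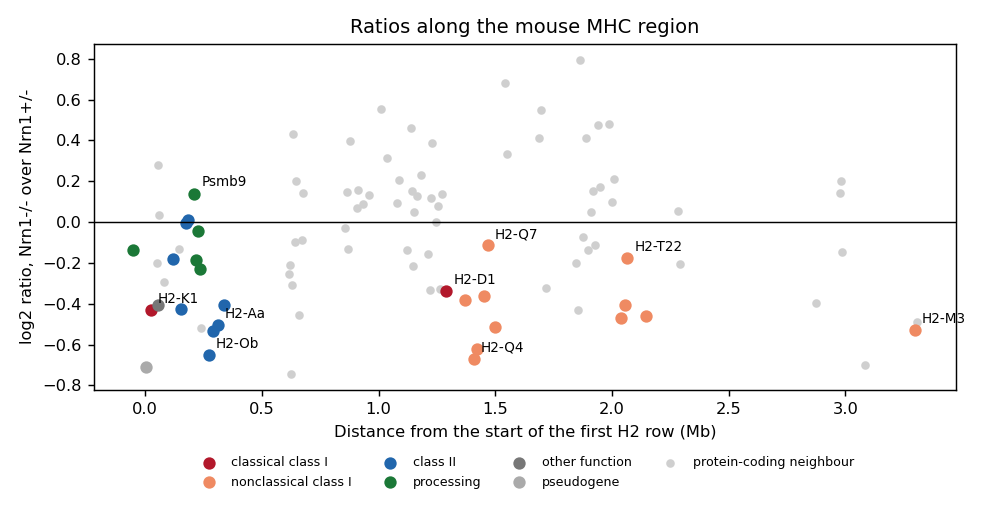
Log2 ratio of each measured gene on chromosome 17 (y axis) against its distance in Mb from the start of the first H2 gene (x axis), with members in colour by class and other protein-coding genes of the region in light grey. Class I and class II members lie between -0.67 and 0.01, and the pseudogene H2-K2 at -0.71, among neighbours that lie on both sides of 0 with a median of 0.07, which with libraries scaled to their upper quartile or to equal sums is below 0.

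Class II transcripts were present at low to moderate level and most were lower in Nrn1-/- cells, 8 of 9 measured, where 47.7% of all genes tested were. Among the 8, H2-DMb2 was close to equality (4.95 FPKM in Nrn1-/- cells and 4.97 FPKM in Nrn1+/- cells). Of the classical alpha and beta chains, H2-Aa had 22.5 FPKM in Nrn1-/- cells and 32.3 FPKM in Nrn1+/- cells (1.44-fold lower). H2-Ab1, its beta chain partner, had 20.05 and 29.4 FPKM (1.47-fold lower), and H2-Eb1, the E beta chain, had 21.6 and 29.0 FPKM (1.34-fold lower). The alpha chain partner of H2-Eb1, listed as H2-Ea-ps, was at 0 in both libraries, and mice of the C57BL/6 background are known to lack E alpha expression. H2-Aa and H2-Ab1 kept a ratio of 1.12 in Nrn1-/- cells and 1.10 in Nrn1+/- cells. H2-K1 exceeded H2-Aa 86.1-fold in Nrn1-/- cells and 80.6-fold in Nrn1+/- cells.

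The accessory genes of class II were less even. Cd74, the invariant chain that guides class II to endosomes, was the most abundant at 116 FPKM in Nrn1-/- cells and 124 FPKM in Nrn1+/- cells, only 1.07-fold lower. Relative to H2-Aa it stood at 5.17 in Nrn1-/- cells and 3.84 in Nrn1+/- cells, an excess in Nrn1-/- cells of 1.35 times with a counting interval from 1.22 to 1.49. H2-DMa, the alpha chain of the peptide exchanger H2-DM, had 48.4 FPKM in Nrn1-/- cells and 65.3 FPKM in Nrn1+/- cells (1.35-fold lower). Its beta chains did not follow: H2-DMb1 had 2.15 and 2.13 FPKM and H2-DMb2 4.95 and 4.97 FPKM, and the sign of H2-DMb1 turns negative when libraries are centred on the median of all genes or rescaled. The beta chain genes share 27.2% and 25.9% of their 50-base stretches with other genes, and their sum was 7.10 FPKM in either library. H2-Oa and H2-Ob form H2-O, which restrains H2-DM. H2-Ob had 3.33 FPKM in Nrn1-/- cells and 5.79 FPKM in Nrn1+/- cells, 1.74-fold lower and the only class II gene past 1.5-fold, with an interval from 0.490 to 0.673 that rests on 220 and 503 estimated fragments. H2-Oa had 4.94 FPKM in Nrn1-/- cells and 5.73 FPKM in Nrn1+/- cells, and its interval from 0.712 to 1.04 includes no difference.

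Ciita, the class II transactivator, lay under the filter at 0.660 FPKM in Nrn1-/- cells and 0.918 FPKM in Nrn1+/- cells, as did H2-Eb2 at 0.162 and 0.268 FPKM. Class II also marks antigen-presenting cells, so their markers were read beside these values. The 8 B cell markers summed to 8.59 FPKM in Nrn1-/- cells and 6.25 FPKM in Nrn1+/- cells, and all 8 were higher in Nrn1-/- cells, though Cd79b turns lower under upper-quartile scaling and under scaling to equal sums. Only Cd79b reached a mean of 1 FPKM (5.14 and 4.85 FPKM), and its counting interval from 0.888 to 1.26 includes equality, while Cd79a stood at 1.16 and 0.553 FPKM. The 7 dendritic cell markers summed to 9.32 FPKM in Nrn1-/- cells and 8.59 FPKM in Nrn1+/- cells, of which Batf3 made 6.95 and 5.63 FPKM, with 4 of 7 higher (3 under either scaling), 1 lower and Clec9a and Siglech listed at 0 in both. The 8 macrophage and monocyte markers summed to 0.666 FPKM in Nrn1-/- cells and 0.865 FPKM in Nrn1+/- cells, with C1qa and C1qb at 0 in both, Csf1r and Fcgr1 also at 0 in Nrn1-/- cells, and 5 of 8 lower. The 4 epithelial and stromal markers summed to 37.0 FPKM in Nrn1-/- cells and 51.0 FPKM in Nrn1+/- cells, mostly Pecam1 (24.6 and 34.6 FPKM), and the 4 CD8 T and natural killer cell markers to 5.22 and 6.91 FPKM. The 5 T cell markers were all lower in Nrn1-/- cells, with sums of 1257 and 1448 FPKM. Cd3g, a subunit gene of the T cell receptor complex, had 186 FPKM in Nrn1-/- cells and 250 FPKM in Nrn1+/- cells and was 1.35-fold lower, like H2-K1. Foxp3 was 1.32-fold lower, and Cd3e (158 and 180 FPKM) 1.13-fold lower. The part of these cells in the class I and class II values was not tested.

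The peptide supply genes stood closer to equality than most class I heavy chains. Exceptions were H2-Q7 and H2-T22, whose log2 ratios of -0.11 and -0.18 were nearer to it than those of Tap1 (-0.19) and Tap2 (-0.23). Tap1 and Tap2, the subunits of the peptide transporter, had 252 and 154 FPKM in Nrn1-/- cells and 287 and 181 FPKM in Nrn1+/- cells, 1.14-fold and 1.17-fold lower. Their ratio to each other was 1.64 in Nrn1-/- cells and 1.59 in Nrn1+/- cells. Tapbp, the tapasin that bridges TAP and class I, had 211 and 232 FPKM, and the peptide editor Tapbpl had 58.6 and 62.7 FPKM. Erap1, the aminopeptidase that trims peptides in the endoplasmic reticulum, was higher in Nrn1-/- cells at 48.9 FPKM, against 42.3 FPKM in Nrn1+/- cells, 1.16-fold. Exons of other genes on the opposite strand cover 24.9% of the exonic bases of Tapbp, 18.5% of Tap2, 14.7% of Psmb8 and 11.5% of Erap1. Small differences of these genes are uncertain for that reason. Within each library H2-K1 exceeded Tap1 7.68-fold in Nrn1-/- cells and 9.10-fold in Nrn1+/- cells.

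The 3 immunoproteasome subunits replace constitutive catalytic subunits under interferon and change which peptides are cut. Psmb8 had 490 FPKM in Nrn1-/- cells and 506 FPKM in Nrn1+/- cells, Psmb10 112 and 122 FPKM, and Psmb9 210 and 190 FPKM. Psmb9 (1.10-fold) and Erap1 were the only processing genes higher in Nrn1-/- cells, and both turn lower when libraries are scaled to equal sums. The constitutive counterparts were higher: Psmb5 had 210 FPKM in Nrn1-/- cells and 159 FPKM in Nrn1+/- cells, Psmb6 292 and 233 FPKM, and Psmb7 216 and 168 FPKM. Ratios inside a library do not depend on how libraries were scaled. Psmb8 over Psmb5 was 2.33 in Nrn1-/- cells and 3.18 in Nrn1+/- cells, and Psmb10 over Psmb7 was 0.521 in Nrn1-/- cells and 0.725 in Nrn1+/- cells. Psmb9 over Psmb6 was 0.718 in Nrn1-/- cells and 0.816 in Nrn1+/- cells. The Nrn1-/- ratio was thus 0.734, 0.718 and 0.879 times the Nrn1+/- ratio, with counting intervals from 0.703 to 0.767, from 0.685 to 0.753 and from 0.842 to 0.918. All 3 pairs showed less immunoproteasome transcript per constitutive transcript in Nrn1-/- cells.

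**Figure D3:**
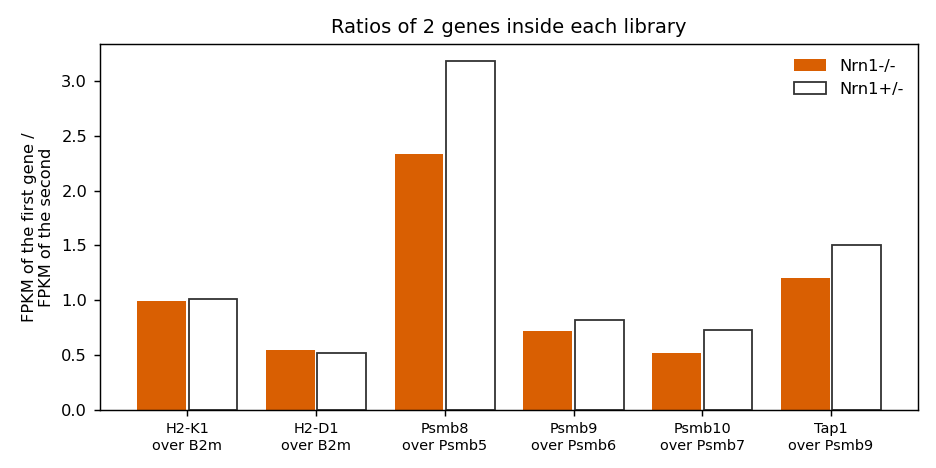
Ratio of the FPKM of 2 genes within each library (y axis, linear from 0), with the Nrn1-/- library as filled bars left of the Nrn1+/- library as open bars. H2-K1 over B2m is 0.995 and 1.01, almost equal, while the Psmb8 over Psmb5 bars are 2.33 and 3.18.

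Tap1 and Psmb9 are divergent neighbours whose RefSeq starts lie 226 bases apart, and 275 bases of their promoter windows are shared. As deposited, their log2 ratios differed in sign (-0.19 for Tap1 and 0.14 for Psmb9), but under scaling to equal sums both are negative (-0.48 and -0.15). Inside a library, where scaling plays no part, Tap1 over Psmb9 was 1.20 in Nrn1-/- cells and 1.51 in Nrn1+/- cells (0.798 times, with an interval from 0.773 to 0.823). Tap1 shares 6.27% and Psmb9 9.71% of its 50-base stretches with other genes. H2-Ke6, which bears an H2 symbol and encodes a steroid dehydrogenase, had 58.7 FPKM in Nrn1-/- cells and 78.3 FPKM in Nrn1+/- cells, with 86.4% of its exonic bases also annotated to Gm20427 on the same strand.

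Other genes of the pathway were read from gene lists. Over all genes tested, 47.7% were lower in Nrn1-/- cells and 52.3% higher, with 5.27% and 7.5% past 1.5-fold. The 8 peptide loading and folding partners, general chaperones of the endoplasmic reticulum that class I also uses, were all higher in Nrn1-/- cells with a median log2 ratio of 0.34. Under upper-quartile scaling 2 turn lower with a median of 0.21, and under scaling to equal sums 3 turn lower with a median of 0.05. Hspa5 (BiP), the only one past 1.5-fold, had 548 FPKM in Nrn1-/- cells and 355 FPKM in Nrn1+/- cells. Calr, the calreticulin of the loading complex, had 523 and 369 FPKM, and Canx, the calnexin that holds new heavy chains, had 235 and 165 FPKM. H2-K1 therefore exceeded Calr 3.70-fold in Nrn1-/- cells and 7.06-fold in Nrn1+/- cells. Of the 8 genes of the constitutive proteasome, its activators and its assembly, 6 were higher and none was past 1.5-fold, with a median of 0.34 that is 0.21 under upper-quartile scaling and 0.05 under scaling to equal sums. Pomp, which assembles the proteasome, had 354 FPKM in Nrn1-/- cells and 256 FPKM in Nrn1+/- cells, and Psme3, an activator subunit, had 164 and 120 FPKM. The interferon-inducible activator subunits Psme1 (511 and 543 FPKM) and Psme2 (501 and 532 FPKM) were the 2 that were lower.

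Among 7 peptidases that shorten peptides, 4 were higher and 3 lower, with a median of 0.23 that is -0.06 under scaling to equal sums. Lap3, a leucine aminopeptidase, had 73.8 FPKM in Nrn1-/- cells and 36.9 FPKM in Nrn1+/- cells, and Thop1, an oligopeptidase of the cytosol, had 41.3 and 21.1 FPKM. These 2 were the members past 1.5-fold, and Blmh followed at 52.3 and 41.6 FPKM. Of 14 measured genes of class II processing and its promoter factors, 8 were higher and 6 lower, with a median of 0.16 that turns to -0.12 under scaling to equal sums. Ifi30, a lysosomal thiol reductase, had 65.4 FPKM in Nrn1-/- cells and 36.0 FPKM in Nrn1+/- cells and was alone past 1.5-fold. Nfyc, a subunit of the Y box binding factor NF-Y, had 37.3 and 25.4 FPKM, and the protease Ctsl had 2.13 and 3.10 FPKM. Class II, processing and folding genes thus did not share 1 direction.

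**Figure D4:**
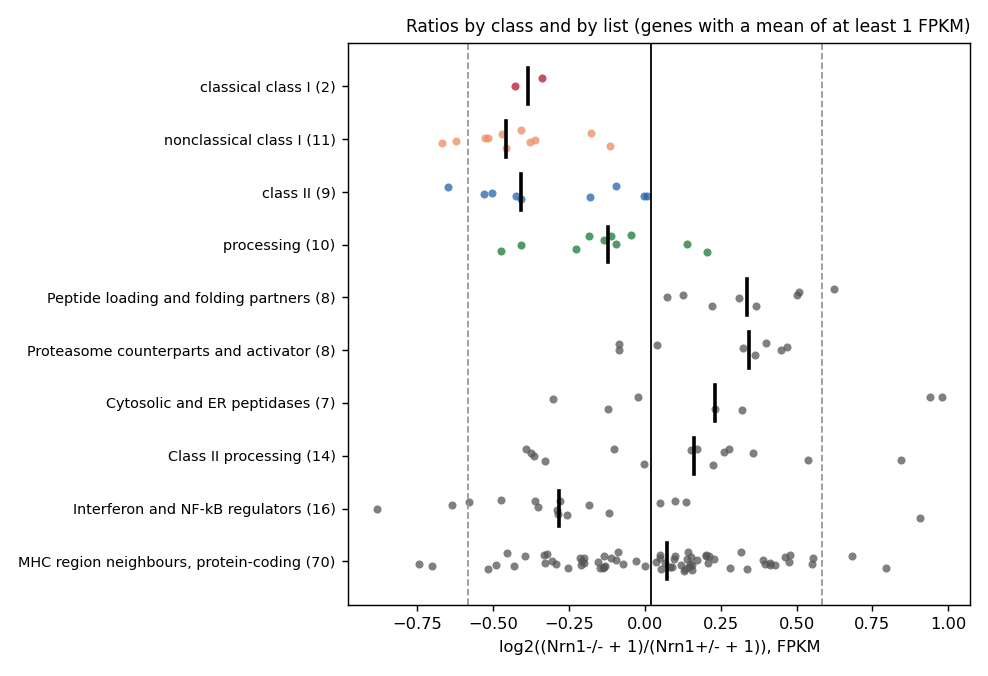
Log2 ratio of every measured gene (points) by class and by list, with the number of genes in brackets, the median as a thick bar, the median of all genes tested as a solid line and 1.5-fold as dashed lines. The medians of the 3 MHC classes lie between -0.46 and -0.38, those of the folding partners and constitutive proteasome at 0.34 (0.05 under scaling to equal sums), and that of the region's other protein-coding genes at 0.07, which turns negative under upper-quartile scaling and, like the peptidase and class II processing medians, under scaling to equal sums.

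Among 16 regulators of these genes, 12 were lower and 4 higher in Nrn1-/- cells, with a median of -0.28. Of all genes tested, 47.7% were lower and 52.3% higher. Under upper-quartile scaling 14 regulators are lower with a median of -0.41, and under scaling to equal sums 15 with a median of -0.57. The median of all genes then stands at -0.10 and -0.25. Ifngr1, a chain of the interferon-gamma receptor, had 175 FPKM in Nrn1-/- cells and 323 FPKM in Nrn1+/- cells (1.85-fold lower). Irf9, a DNA-binding factor of the interferon response, had 41.1 and 64.4 FPKM (1.57-fold lower). Irf8 went the other way with 276 FPKM in Nrn1-/- cells and 147 FPKM in Nrn1+/- cells (1.88-fold higher). These 3 were the regulators past 1.5-fold, where 5.27% of all genes were past it lower and 7.5% higher. Irf1, which binds ISRE sequences, had 242 FPKM in Nrn1-/- cells and 296 FPKM in Nrn1+/- cells.

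MHC-like molecules encoded outside the H2 region were also read. Of 10, 4 were measured and 3 of these were lower, with a median of -0.30. Of all genes tested, 47.7% were lower and 5.27% at least 1.5-fold lower. Cd1d1, which presents lipids to natural killer T cells, had 12.1 FPKM in Nrn1-/- cells and 24.7 FPKM in Nrn1+/- cells, 2.04-fold lower and the only one past 1.5-fold. Mr1, which presents vitamin B metabolites to mucosal T cells, had 4.27 and 6.71 FPKM, and Ulbp1, a ligand of NKG2D, had 8.76 and 7.98 FPKM.

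The other genes that lie among the H2 genes served as a local comparison. Between the first and the last H2 gene (GRCm38 chromosome 17, 33974659 to 37483552, 3.51 Mb), 133 other protein-coding genes were listed and 70 were measured. Of these 29 were lower and 41 higher in Nrn1-/- cells, with a median of 0.07, though 40 are lower under upper-quartile scaling and 55 under scaling to equal sums. The 2 past 1.5-fold lower were Ager, a receptor for glycated proteins (5.81 FPKM in Nrn1-/- cells and 10.4 FPKM in Nrn1+/- cells), and Gabbr1, a GABA receptor subunit (18.1 and 30.1 FPKM). The 2 past 1.5-fold higher were Tubb5, a beta-tubulin (656 and 377 FPKM), and the growth-linked gene Tcf19 (47.1 and 29.0 FPKM). Of all protein-coding genes tested, 45.7% were lower, 3.69% at least 1.5-fold lower and 7.01% at least 1.5-fold higher. Class I heavy chains, with all 13 lower and a median of -0.43, thus stood below the median of genes in the same stretch of chromosome. Many of the 13 share sequence with each other, so they are not all separate observations, though H2-M3 (0.576%) and H2-T24 (3.17%) share little. B2m and Nlrc5, on other chromosomes, had log2 ratios of -0.41 and -0.48. A part of chromosome position in these values was not tested.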

How the data were processed

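Poly(A) RNA of sorted effector Treg cells was sequenced, with 1 library of Nrn1-/- and 1 of Nrn1+/- cells, grouped by genotype label. Per the labels' protocols, RNA was taken by column kit and randomly primed after oligo-dT selection. The deposited values are FPKM per gene as computed by the authors. Per the submitters' processing notes, TopHat, Cuffdiff, Cuffnorm and FastQC were used with mm10/GRCm38. Versions, annotation, the treatment of reads shared by similar genes and any scaling step stayed not given in the sources used here. Other scalings were tried for that reason.

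The files held 46511 rows. The 82 symbols with several rows were summed, which touched no member. Ratios used a pseudocount of 1 FPKM, and genes averaging at least 1 FPKM were kept (12344). A difference counted as past 1.5-fold on the log2 scale with pseudocount. With 1 library per genotype no test was made. The spacing of low values put 1 fragment on 1 kb at 0.0254 FPKM for Nrn1-/- and 0.0193 FPKM for Nrn1+/-, where 97.0% of 1809 and 96.3% of 1993 genes lay within 0.1 of whole fragments. Fragment counts and 95% Poisson intervals rest on that estimate and cover counting error only, as PCR copies could not be set apart without molecular identifiers. All FPKM summed to 790935 and 645876. Over genes tested the Nrn1-/- sum was 1.23 times the Nrn1+/- sum, against 1.09 times for protein-coding genes alone. Genes of other types therefore weigh on the scaling to equal sums, and a scaling to protein-coding sums was not tried.

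Positions came from GENCODE M21 (46000 identifiers matched), promoters from RefSeq GRCm38.p6, and the planned comparison of protein sequences was not made. Every member with a mean of at least 1 FPKM is named, others by counts. In each list the 3 largest ratios and members past 1.5-fold are named, and a few further list members (such as Psmb5, Psmb6, Psmb7, Psme1, Psme2, Irf1) were named after their values were seen. Members and lists were chosen with earlier results of these data known. Calculations used Python 3.11.15, pandas 2.3.3, NumPy 2.4.6 and SciPy 1.17.1 and were tested on simulated data.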

Additional observations from a re-analysis of the deposited data

How the results depend on the processing

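No paired analysis was possible because each genotype has 1 library, and for the same reason no library could be left out. The 4 class medians kept their sign under every alternative. Both scalings and the centring lowered Nrn1-/- values relative to Nrn1+/- values, so they could not have turned a negative sign. At a sum of 1000000 the signs of Psmb9 (-0.15), Erap1 (-0.08), H2-DMb1 (-0.21) and the medians of the peptidases (-0.06), class II processing (-0.12) and protein-coding neighbours (-0.20) turned negative. Upper-quartile scaling did so for H2-DMb1 (-0.08) and those neighbours (-0.04), and centring for H2-DMb1 (-0.01). A pseudocount of 0.1 FPKM changed no count by over 1.5 times, though 972 genes were then 1.5-fold lower and 1133 higher, and keeping rows apart moved no count of members. The median log2 ratio of all genes, 0.02 as deposited, was -0.10 under upper-quartile scaling and -0.25 with each library at a sum of 1000000, and the counts past 1.5-fold over all genes (651 lower and 926 higher) became 1103 and 601, and 2179 and 408. Under upper-quartile scaling the classical, nonclassical and processing medians were -0.51, -0.58 and -0.25, 5 nonclassical, 3 class II and 1 processing gene were at least 1.5-fold lower, no class II gene was higher, and 2 folding partners were lower. At a sum of 1000000 the classical, nonclassical, class II and processing medians were -0.68, -0.75, -0.70 and -0.41, with 2, 9, 5 and 2 genes at least 1.5-fold lower and no class II or processing gene higher. There 3 folding partners, 11 class II processing genes, 69 of 87 region neighbours and 55 protein-coding ones were lower. Centred on the median of all genes, the classical median was -0.40 and no class II gene was higher. Without a filter, the nonclassical and class II medians were -0.11 and -0.21 with many genes at 0, 1 nonclassical gene was higher, and 7 MHC-like genes, 82 neighbours and 54 protein-coding neighbours were lower. At a mean of at least 5 FPKM, no class II gene was higher or 1.5-fold lower, and 432 genes were 1.5-fold lower. Depth limits H2-Oa, H2-DMb1 and H2-DMb2, whose counting intervals include equality.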
